A study of Rattus norvegicus with 8 samples.

Results

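Egfr, Ghr, Fgfr1, Pdgfb, Bmp7 and Myc are 6 genes of growth factor signalling that were taken by symbol from the authors' deposited table of 2462 genes, where each had 1 entry. The table compares the livers of 8 wild type rats of the inbred strain Fischer 344, aged 1 year. On the CDAA diet, which is choline-deficient and amino acid-defined, 4 rats had developed hepatocellular carcinoma, and 4 rats on the choline-sufficient counterpart, CSAA, were the healthy-diet group. Whole livers were removed and total RNA was sequenced, and neither the rats' sex nor any dissection of nodules is labelled. The table gives 1 level per diet group and 1 comparison of the groups, so the error given with a fold change is the standard error (SE) from the authors' model, and the spread between single rats was not analysed here. Group levels are taken as FPKM (fragments corrected for transcript length and sequencing depth), the unit that Cufflinks writes in that column, since the header does not name it.

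Growth factors are secreted proteins that bind receptors on the cell surface. Egfr and Fgfr1 encode receptor tyrosine kinases, Ghr encodes the growth hormone receptor, which acts through the kinase JAK2 and the transcription factor STAT5B, and Bmp7 encodes a ligand of the TGF-beta superfamily that signals through receptor serine kinases and SMAD proteins. Hepatocytes are known for abundant Egfr and Ghr, while Pdgfb encodes the B chain of platelet-derived growth factor, a mitogen of hepatic stellate cells, the collagen-producing cells of injured liver. Myc encodes a transcription factor that binds DNA with its partner MAX, is induced by many growth factors and drives genes of growth and division.

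Both hepatocyte receptors were lower and the other 4 genes higher in the CDAA livers. Of the 6 genes, 4 rose, against a background of 57.1% risers in the authors' deposited table, and 2 fell, against 42.9% fallers; 100% of the table's genes had passed the authors' tests, so that the passing of the 6 is no result. The log2 fold changes ran from -1.39 for Egfr to 2.74 for Myc per the authors' deposited table, and 5 of the 6 genes changed at least 2-fold, where 75.1% of the table did. These were 4 risers and 1 faller, where risers of that size made up 50.2% and such fallers 24.9% of the table. Direction went with level throughout the table: of 321 genes with at least 100 FPKM in CSAA 98.1% fell, and of 1294 genes under 5 FPKM 92.3% rose. Egfr and Ghr belonged to the former class and the 4 risers to the latter, so their directions were those of most listed genes of their class. Myc, at 3.96 FPKM in CSAA, lay near the bound of its class. Of genes from 5 to under 100 FPKM only 24.3% rose. In bulk RNA, fewer cells of a type and less RNA per cell cannot be told apart.

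**Figure D1:**
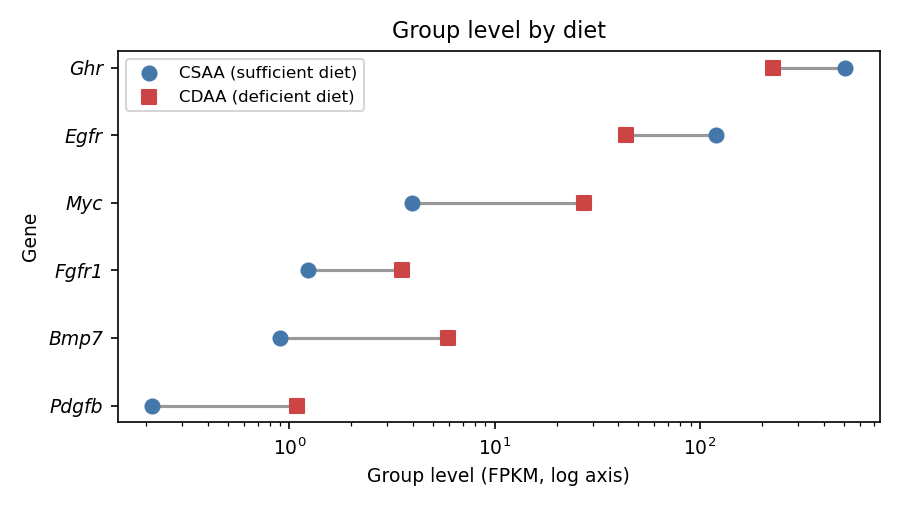
Group level of each gene in FPKM on a log axis; each circle is the CSAA group value, each square the CDAA group value, and the grey line joins the 2 values of a gene. Ghr and Egfr lie above 40 FPKM in both groups and move left, and the other 4 genes move right, with Bmp7 passing Fgfr1.

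In the CSAA group the order of the levels was Ghr (509 FPKM), Egfr (119 FPKM), Myc (3.96 FPKM), Fgfr1 (1.23 FPKM), Bmp7 (0.897 FPKM) and Pdgfb (0.215 FPKM) per the authors' deposited table. In the CDAA group it was Ghr (226 FPKM), Egfr (43.7 FPKM), Myc (27.3 FPKM), Bmp7 (5.95 FPKM), Fgfr1 (3.55 FPKM) and Pdgfb (1.08 FPKM) per the authors' deposited table. Bmp7 and Fgfr1 thus changed places, from a Bmp7 to Fgfr1 ratio of 0.732 to one of 1.67. Whether neighbours in either order differ beyond the spread between rats was not tested, because a group has 1 value. The distance between the receptors and Myc narrowed: the level of Egfr was 30.1 times that of Myc in CSAA and 1.60 times in CDAA. Between Ghr and Egfr the ratio of levels was 4.27 in CSAA and 5.18 in CDAA.

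Egfr is the receptor of EGF and TGF-alpha, ligands that drive hepatocyte division in regenerating liver. Egfr (ENSRNOG00000004332; chromosome 14, 99919484 to 100098796, rn6) had 119 FPKM in CSAA and 43.7 FPKM in CDAA, which is 36.7% of the former, per the authors' deposited table. The authors' DESeq2 log2 fold change was -1.39 ± 0.24 (SE), with a 95% interval from -1.86 to -0.92 and an adjusted p of 1.02e-07 per the authors' deposited table. The gene was covered by a mean of 5304 normalised counts per library, and edgeR (-1.44) and Cufflinks (-1.45) gave log2 fold changes within 0.06 of it per the authors' deposited table. Among the 1055 fallers, 28.2% had a larger change. The median faller of the table was at -1.08 on the log2 scale, within the 95% interval of Egfr.

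Ghr is the receptor through which pituitary growth hormone induces Igf1 and sets sex-dependent P450 genes in rat liver. Ghr (ENSRNOG00000015654; chromosome 2, 53150369 to 53413638, rn6) had 509 FPKM in CSAA and 226 FPKM in CDAA, which is 44.5% of the former, per the authors' deposited table. Its log2 fold change was -0.99 ± 0.23 (SE; 95% interval -1.44 to -0.54; DESeq2 adjusted p = 0.000121), on a mean of 8169 normalised counts, per the authors' deposited table. edgeR put it at -1.02 and Cufflinks at -1.17 per the authors' deposited table, so that the fall lay just short of 2-fold in the DESeq2 column and just past it in the others. Of the fallers, 59.4% had a larger change. Despite its fall Ghr stayed among the most abundant genes, at rank 72 of 2462 by CSAA level and rank 64 by CDAA level. The 95% intervals of Egfr and Ghr overlapped, with a difference of -0.40 between their log2 fold changes.

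The window shown runs from 250 bases before to 50 bases after the start site. It is given for Egfr and Ghr, which fell, and for Pdgfb, which rose, since only these 3 of the 6 genes matched a sequence. The 3 differ in their content of CpG, the dinucleotide at which mammalian DNA is methylated. Sequences are those of RefSeq, build GRCr8. Capitals mark each CG, and every window reads 5′ to 3′ on the gene's strand (Egfr, chr14:95378376-95378675, plus strand; Ghr, chr2:54432026-54432325, minus strand; Pdgfb, chr7:113438294-113438593, minus strand).
Egfr: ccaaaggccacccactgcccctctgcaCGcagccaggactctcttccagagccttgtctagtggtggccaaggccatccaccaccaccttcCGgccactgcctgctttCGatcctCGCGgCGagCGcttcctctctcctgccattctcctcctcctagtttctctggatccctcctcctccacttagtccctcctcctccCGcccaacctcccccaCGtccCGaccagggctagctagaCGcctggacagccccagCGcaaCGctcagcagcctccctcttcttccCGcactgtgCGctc
Ghr: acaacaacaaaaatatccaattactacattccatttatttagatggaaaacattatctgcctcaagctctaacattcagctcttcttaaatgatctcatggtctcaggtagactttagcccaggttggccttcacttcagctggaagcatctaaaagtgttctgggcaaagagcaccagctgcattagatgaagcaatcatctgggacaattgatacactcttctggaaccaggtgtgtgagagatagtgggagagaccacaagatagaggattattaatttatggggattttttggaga
Pdgfb: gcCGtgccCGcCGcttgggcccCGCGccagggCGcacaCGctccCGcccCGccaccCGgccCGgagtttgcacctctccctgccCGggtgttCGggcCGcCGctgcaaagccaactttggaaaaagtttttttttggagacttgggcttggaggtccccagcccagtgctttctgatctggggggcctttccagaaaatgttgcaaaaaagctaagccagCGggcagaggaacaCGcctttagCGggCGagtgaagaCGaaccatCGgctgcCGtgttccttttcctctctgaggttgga
The Egfr window held 15 CG and 64.3% G or C, the Pdgfb window 22 CG and 62.0%, and the Ghr window 0 CG and 40.0%, where the medians of 33469 rat windows of this length were 7 CG and 51.7%. A window without CG was found in 5.47% of these 33469 windows. The Ghr window belongs to a start site 100.52 kb from the annotated 5′ end of the gene, so it shows 1 of the starts of this gene. On either strand, the MYC and MAX element CACGTG, held by 6.42% of all windows, had no match in the 3, and neither had the STAT element TTCNNNGAA (8.87%) or the AP-1 element TGACTCA (4.63%). GGAAT (39.6% of windows) was matched in Ghr, and CAAAG (53.8%) in all 3. These matches describe letters in the windows shown, and no DNA methylation was analysed here.

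Around Egfr, the ERBB family and its ligands had 4 of 15 genes in the authors' deposited table, 2 higher and 2 lower. The shares over the whole table were 57.1% higher and 42.9% lower. Erbb3, the neuregulin receptor of hepatocytes, fell with Egfr (50.9 to 27.8 FPKM; log2 fold change -0.88 ± 0.19, SE) per the authors' deposited table. The ligand genes Btc, betacellulin (1.57 ± 0.45), and Nrg1, neuregulin 1 (1.35 ± 0.27), rose from 0.235 to 0.781 and from 2.001 to 5.16 FPKM per the authors' deposited table. Egf, Tgfa, Hbegf and Areg were not in the table, which does not show that they were unchanged. Of 19 adaptors and inhibitors of the receptor 4 were listed, 2 higher and 2 lower. The inhibitor Lrig1 (-0.79 ± 0.15) and its relative Lrig3 (-1.25 ± 0.23) fell per the authors' deposited table. Rhbdf1 (1.74 ± 0.24) and Rhbdf2 (1.67 ± 0.27), the iRhom partners of a protease that sheds ERBB ligands, rose per the authors' deposited table. In both lists the 2 risers lay under 5 FPKM in CSAA, where 92.3% of the table's genes rose. The 2 fallers of each lay above that level. Of genes from 5 to under 100 FPKM 75.7% fell, and of those with at least 100 FPKM 98.1%.

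In the growth hormone receptor pathway 3 of 14 genes were listed, Ghr among them, and all 3 were lower, where 42.9% of the table was lower. None of the 3 lay under 5 FPKM in CSAA. Above that level most of the table fell, 75.7% of genes from 5 to under 100 FPKM and 98.1% of those with at least 100 FPKM. Stat5b, the transcription factor that carries the receptor's signal, fell from 20.9 to 11.1 FPKM (-0.93 ± 0.11, SE), and Bcl6, a repressor that opposes STAT5, fell from 14.8 to 4.10 FPKM (-1.70 ± 0.42) per the authors' deposited table. Jak2, Socs2 and Cish were not in the table. The list of growth hormone-dependent liver genes counted 6 of 17 in the authors' deposited table, Egfr among them. All 6 were lower, where 42.9% of the table was lower, and none of them lay under 5 FPKM in CSAA either. Their direction was thus that of most listed genes of similar level. The median log2 fold change of the 6 was -2.92 where the median of all fallers was -1.08. Cyp2c11, the male-specific P450 gene that depends on pulsed growth hormone, fell from 1087 to 39.4 FPKM (-4.31 ± 0.45) per the authors' deposited table. Cyp2c7 of the same list fell by about as much (506 to 13.2 FPKM; -4.30 ± 0.57), and Srd5a1 fell as well (-2.26 ± 0.42), per the authors' deposited table. A change of a sex-dependent pattern was not tested, and the rats' sex is not labelled. Igf1, Igfals and Igfbp3, the classical secreted products of growth hormone action, were not in the table. Of 17 IGF and insulin genes 5 were listed, 3 higher and 2 lower, where 57.1% of the table was higher and 42.9% lower. Igf1r (1.28 ± 0.27), Igfbp5 (2.56 ± 0.41) and Igfbp7 (1.34 ± 0.17) rose per the authors' deposited table. The insulin receptor substrates Irs1 (-0.78 ± 0.11) and Irs3 (-2.71 ± 0.49) fell per the authors' deposited table. Igf1r and Igfbp5 lay under 5 FPKM in CSAA, where 92.3% of the table's genes rose. Igfbp7, Irs1 and Irs3 lay from 5 to under 100 FPKM, where 75.7% fell.

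Fgfr1 encodes a receptor of FGFs that is mainly found on mesenchymal and endothelial cells, while the FGF receptor of hepatocytes is chiefly Fgfr4. Fgfr1 (ENSRNOG00000016050; chromosome 16, 71266247 to 71319449, rn6) went from 1.23 to 3.55 FPKM per the authors' deposited table. Its log2 fold change was 1.40 ± 0.32 (SE; 95% interval 0.76 to 2.03; DESeq2 adjusted p = 0.000110), or 2.63-fold, on a mean of 104 normalised counts, per the authors' deposited table. edgeR gave 1.45 and Cufflinks 1.54 per the authors' deposited table. It was the mildest riser of the 4, below the median riser of the table (1.65), and 62.2% of risers had a larger change. Its size was about that of the Egfr fall with the opposite sign, and the level of Egfr went from 97.2 to 12.3 times that of Fgfr1.

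Of 32 FGF genes 4 were listed in the authors' deposited table, Fgfr1 among them, and all 4 were higher, where 57.1% of the table was higher. Of the 4, 2 lay under 5 FPKM in CSAA, where 92.3% of the table's genes rose. The receptor gene Fgfr3 rose from 17.2 to 34.0 FPKM (0.98 ± 0.26, SE), and the ligand gene Fgf1, which activates all FGF receptors, rose from 1.54 to 6.06 FPKM (2.20 ± 0.24) per the authors' deposited table. Fgf21, a hormone made by hepatocytes, rose from 34.7 to 83.4 FPKM (1.18 ± 0.34) per the authors' deposited table. Fgfr2, Fgfr4 and the co-receptor gene Klb were not in the table.

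Pdgfb was the least abundant of the 6 genes. Pdgfb (ENSRNOG00000017197; chromosome 7, 121214627 to 121232741, rn6) went from 0.215 to 1.08 FPKM per the authors' deposited table. Its log2 fold change was 2.15 ± 0.42 (SE; 95% interval 1.32 to 2.97; DESeq2 adjusted p = 3.29e-06), or 4.43-fold, per the authors' deposited table. A mean of 21.8 normalised counts stood behind it, and its SE was the largest of the 6 genes on the log2 scale, with bounds of 2.50-fold and 7.82-fold. edgeR (2.32) and Cufflinks (2.33) gave larger rises per the authors' deposited table.

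The list of PDGF, VEGF, KIT and CSF1 genes had 11 of 23 in the authors' deposited table. Of these 10 were higher and 1 lower, with a median of 1.20, where 57.1% of the table was higher. Under 5 FPKM in CSAA lay 7 of the 11, and all 7 rose, as did 92.3% of the table's genes at that level. Among the other PDGF ligand genes, Pdgfd rose with a larger fold than Pdgfb (3.08 ± 0.31, SE; 0.451 to 3.82 FPKM) and Pdgfa with a smaller one (0.94 ± 0.27; 2.32 to 5.49 FPKM), per the authors' deposited table; these differences were not tested. Pdgfrb, the receptor that PDGF-B binds on stellate cells, rose from 5.19 to 12.1 FPKM (1.23 ± 0.19) per the authors' deposited table. For Pdgfra the programs differed in size: DESeq2 gave 1.08 ± 0.20, edgeR 1.08 and Cufflinks 3.28 per the authors' deposited table. For Nrp1, a co-receptor of VEGF, they differed in direction, with 0.69 ± 0.16 in DESeq2, 0.68 in edgeR and -2.08 in Cufflinks per the authors' deposited table. The stem cell factor gene Kitlg (1.80 ± 0.42) and Figf, the gene of VEGF-D (2.92 ± 0.44), rose, and the VEGF receptor gene Kdr, an endothelial gene, fell (-0.96 ± 0.11) per the authors' deposited table.

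Bmp7 is a ligand best known from the kidney and skeleton. Bmp7 (ENSRNOG00000053384; chromosome 3, 170879972 to 170955399, rn6) went from 0.897 to 5.95 FPKM per the authors' deposited table. Its log2 fold change was 2.62 ± 0.31 (SE; 95% interval 2.01 to 3.23; DESeq2 adjusted p = 1.69e-15), or 6.14-fold, on a mean of 102 normalised counts, per the authors' deposited table. edgeR and Cufflinks both gave 2.73 per the authors' deposited table. Only 18.7% of the table's risers had a larger change. With almost the same mean count as Fgfr1, Bmp7 rose by 1.22 more on the log2 scale, and their 95% intervals overlapped at the edges. Overlap of intervals is no test of a difference, and this difference was not tested.

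The BMP list had 4 of 39 genes in the authors' deposited table, 2 higher and 2 lower, where 57.1% of the table was higher and 42.9% lower. Both risers, Bmp7 among them, lay under 5 FPKM in CSAA, where 92.3% of the table's genes rose. Both fallers lay from 5 to under 100 FPKM, where 75.7% fell. Bmp4, the other ligand listed, rose from 0.343 to 2.27 FPKM (2.46 ± 0.40, SE) per the authors' deposited table. The 2 fallers were Id4, of the inhibitor of DNA binding family (-1.37 ± 0.15), and Hfe2, the gene of hemojuvelin, a BMP co-receptor in hepatocyte iron control (-1.34 ± 0.14), per the authors' deposited table. Id1, Smad6 and Hamp, well known BMP targets of liver, were not in the table, nor were the receptor genes Bmpr1a and Bmpr2.

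**Figure D2:**
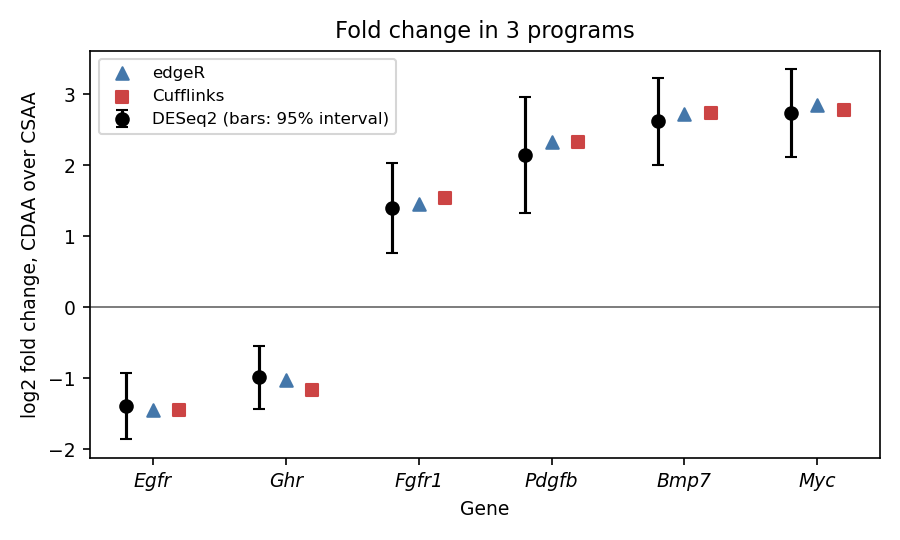
Log2 fold change of CDAA over CSAA for the 6 genes in each of the authors' 3 programs; circles are DESeq2 with 95% intervals from the SE, triangles edgeR and squares Cufflinks. The 3 programs lie within 0.19 of each other for each gene, and no interval reaches 0.

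Myc had the largest change of the 6 genes. Myc (ENSRNOG00000004500; chromosome 7, 102586312 to 102591240, rn6) went from 3.96 to 27.3 FPKM per the authors' deposited table. Its log2 fold change was 2.74 ± 0.31 (SE; 95% interval 2.12 to 3.35; DESeq2 adjusted p = 1.90e-16), or 6.66-fold with bounds of 4.35 and 10.2, on a mean of 371 normalised counts, per the authors' deposited table. edgeR gave 2.85 and Cufflinks 2.79 per the authors' deposited table. By level Myc moved from rank 1222 to rank 543 of the 2462 genes, and 16.1% of the risers had a larger change. The intervals of Myc and Bmp7 overlapped almost wholly, with a difference of 0.12 between their log2 fold changes, and that of Pdgfb overlapped both. Myc and Pdgfb share chromosome 7 but lie 18.6 Mb apart in rn6.

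Of 18 genes of the MYC and MAX network 3 were listed in the authors' deposited table, 2 higher and 1 lower. For this list and the 2 below, the shares over the whole table were 57.1% higher and 42.9% lower. The 2 risers of the network lay under 5 FPKM in CSAA. Beside Myc these were Aurka, a mitotic kinase gene (0.98 ± 0.26, SE), which rose, and Mlxipl, the gene of the glucose-responsive factor ChREBP (-1.05 ± 0.13), which fell from 94.9 to 48.2 FPKM, per the authors' deposited table. Max, Mycn, Mycl and the MAX dimerisation genes Mxd1, Mxd4, Mxi1 and Mnt were not in the table. Of 59 genes known to be induced by MYC 11 were listed in the authors' deposited table, 9 higher and 2 lower, with a median log2 fold change of 1.17 against 1.006 over all 2462 genes. The steepest were the cyclin gene Ccne1 (2.81 ± 0.44) and Mthfd2 of mitochondrial folate metabolism (2.43 ± 0.32), and the fallers were Ldha (-1.36 ± 0.35) and Shmt1 (-0.74 ± 0.16), per the authors' deposited table. The nucleolar genes of that list, such as Ncl, Npm1, Fbl and Nop56, were not in the table. Of 13 genes known to be repressed by MYC 5 were listed, 4 higher (Col1a1, 3.32 ± 0.37; Klf6, 2.25 ± 0.20; Ndrg1, 2.001 ± 0.27; Cdkn2b, 1.79 ± 0.37) and 1 lower (Ndrg2, -1.50 ± 0.17), per the authors' deposited table. Under 5 FPKM in CSAA lay 7 of the 11 induced and 3 of the 5 repressed genes, all of them higher, where 92.3% of the table's genes at that level rose; no part of MYC in these values was tested.

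Immediate early genes, which growth factors switch on within minutes, and the feedback genes that follow them had 11 of 36 in the authors' deposited table, 10 higher and 1 lower, with a median of 1.69, where 57.1% of the table was higher and its median was 1.006. Of the 11, 9 lay under 5 FPKM in CSAA and all 9 rose, as did 92.3% of the table's genes at that level. Maff (3.41 ± 0.44, SE), Atf3 (2.83 ± 0.38), Klf6 (2.25 ± 0.20) and Egr1 (1.69 ± 0.40), all transcription factor genes, rose per the authors' deposited table. Klf6 was the most abundant of them, going from 8.14 to 42.4 FPKM per the authors' deposited table. Of the feedback genes, the phosphatase genes Dusp2 (2.62 ± 0.46), Dusp8 (2.83 ± 0.49), Dusp7 (1.01 ± 0.23) and Dusp10 (1.001 ± 0.30), the receptor tyrosine kinase inhibitor Spry2 (1.20 ± 0.29) and the ETS factor gene Etv5 (1.07 ± 0.26) rose, and Dusp1 fell (-0.82 ± 0.27), per the authors' deposited table. Fos, Jun and Dusp6 were not in the table. Of 29 genes of the RAS, MAPK and PI3K core 2 were listed, 1 higher and 1 lower. These were the leukocyte kinase gene Pik3cd (1.27 ± 0.31) and the regulatory subunit gene Pik3r1 (-0.80 ± 0.16), per the authors' deposited table. Pik3cd lay under 5 FPKM in CSAA, and Pik3r1 from 5 to under 100 FPKM, where 75.7% of the table's genes fell.

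**Figure D3:**
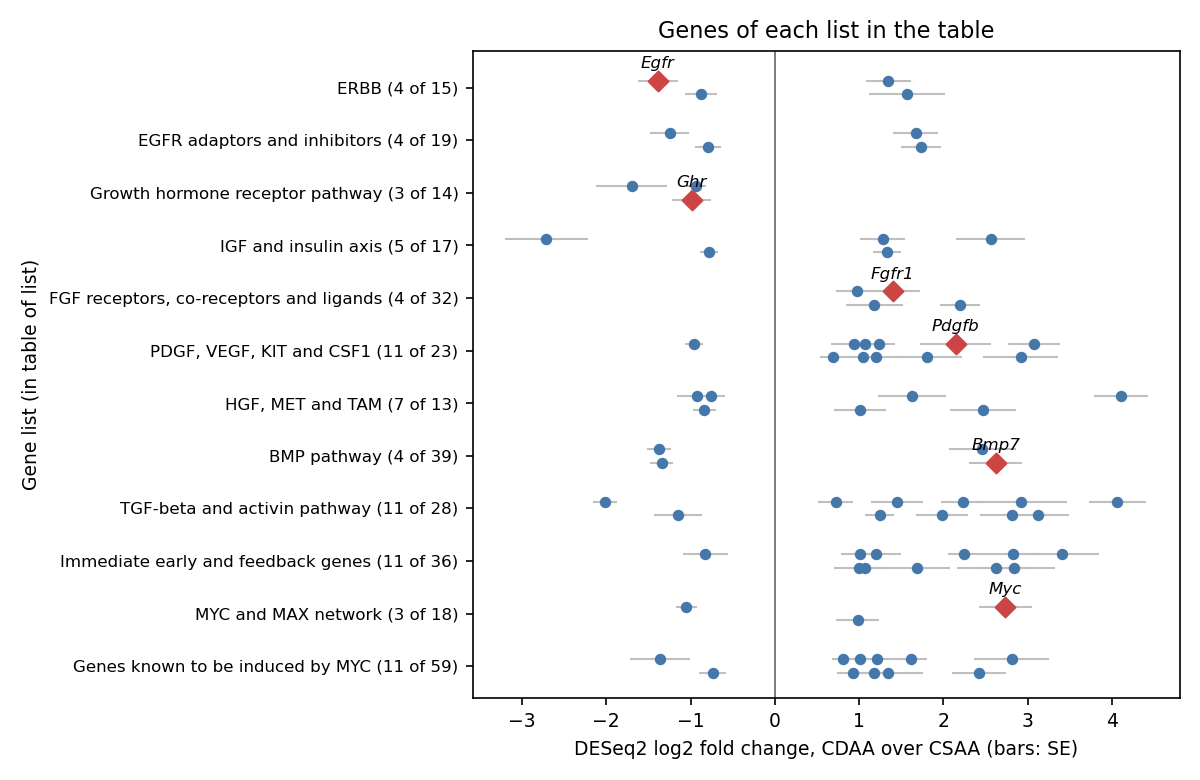
DESeq2 log2 fold change of CDAA over CSAA with SE bars for the genes of 12 lists that are in the table; red diamonds are the 6 genes named in the text, blue points the other genes, and the numbers after a list name give genes in the table of genes in the list. The growth hormone receptor pathway lies wholly below 0 and the FGF genes wholly above it, while the ERBB list holds genes on both sides. The genes known to be induced by MYC are drawn and the RAS, MAPK and PI3K core is not. The 12 lists counted together in the text hold that core and leave out the MYC-induced genes.

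Beside the 6 genes, the 12 lists of receptors, ligands, pathway parts, immediate early genes and the MYC network held 277 genes. Of these 63 were in the authors' deposited table, 45 (71.4%) higher and 18 (28.6%) lower, with a median log2 fold change of 1.20. Among all 2462 genes 57.1% were higher and the median was 1.006. This share does not take level into account, and of genes under 5 FPKM in CSAA 92.3% rose. The lists were chosen with earlier results of these data known, so the difference between the shares was not tested.

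**Figure D4:**
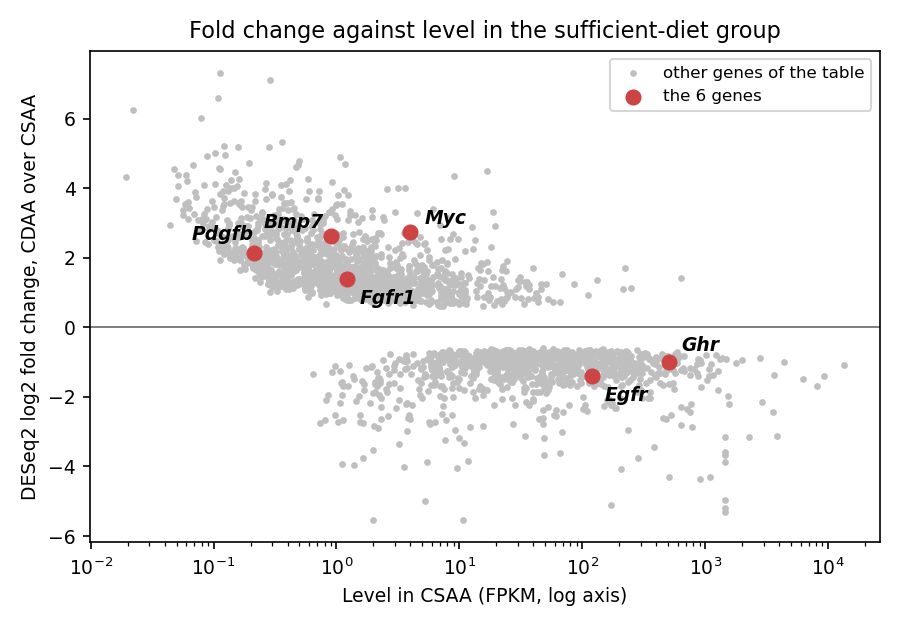
DESeq2 log2 fold change of CDAA over CSAA against the level in CSAA in FPKM on a log axis; grey points are the other genes of the table and red points the 6 genes, and the 17 genes listed at 0 FPKM in CSAA are not drawn. Genes with high CSAA levels lie mostly below 0 and genes with low levels mostly above it, and all 6 genes lie within those clouds.

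The genes most like each of the 6 were sought by the distance between log2 FPKM values over the 2 diet groups among 2314 other named genes, which describes a level and a change and no more. Nearest to Egfr were Ldha, Cyb5b and Oaf (distances 0.05, 0.05 and 0.07), and close to Ghr were Uox, the urate oxidase gene, and C8g, a complement gene (0.01 and 0.04). Nearest to Fgfr1 were Nkd1, Tpx2 and Rgs18 (0.06, 0.11 and 0.11), and nearest to Pdgfb were Rasgrf2, Aoah and Kif4a (0.04, 0.06 and 0.10). For Bmp7 they were Adm2, Mthfd2 and Pkia (0.15, 0.21 and 0.25), and for Myc they were Anxa2, Slc25a4 and Lgals1 (0.10, 0.15 and 0.15). Within 200 kb of the 6 loci the authors' deposited table held 1 other gene, Plek, a leukocyte gene 52.4 kb beyond Egfr, which rose (1.35 ± 0.24, SE) where Egfr fell.

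Markers of several cell types moved with the diet in the same livers, and their part in the values above was not tested. Hepatocyte markers had 4 of 15 genes in the authors' deposited table, all lower, where 42.9% of the table was lower. All 4 had at least 100 FPKM in CSAA, a level at which 98.1% of the table's genes fell. The summed level of these 4 went from 18699 to 7220 FPKM, of which Ttr alone made up 13443 and 6364 FPKM. Bile duct cell markers had 8 of 12, all higher (summed 10.5 to 75.9 FPKM), stellate cell and myofibroblast markers 6 of 15, all higher (13.5 to 51.8 FPKM), and macrophage markers 6 of 15, all higher (25.4 to 160 FPKM), per the authors' deposited table. Endothelial markers had 3 of 14, 2 higher and 1 lower (27.6 to 23.0 FPKM), lymphocyte markers 2 of 12, both higher (4.71 to 14.2 FPKM), and cell cycle markers 12 of 20, all higher (7.89 to 37.6 FPKM), per the authors' deposited table. Under 5 FPKM in CSAA lay 7 of the 8 bile duct, 5 of the 6 stellate and 4 of the 6 macrophage genes. So did 2 of the 3 endothelial, 2 of the 2 lymphocyte and 12 of the 12 cell cycle genes. All of these rose, as did 92.3% of the table's genes at that level. The sums hold only markers that had passed the authors' tests and leave out the others of each list. No listed marker was at 0 in either group. Beside these sums, the levels of Egfr and Ghr fell to 36.7% and 44.5% of CSAA, and the log2 fold changes of the 4 hepatocyte markers were -3.13 ± 0.39 for Apoa2, -1.80 ± 0.11 for Serpinc1, -1.08 ± 0.13 for Ttr and -0.76 ± 0.19 for Hnf4a, per the authors' deposited table.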

How the data were processed

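Liver RNA of 4 CSAA and 4 CDAA rats was sequenced; per the labels' protocols Trizol was used for extraction and an Illumina TruSeq kit for the libraries. The build was rn6 and the tools FastQC, TopHat2, DESeq2, edgeR and Cufflinks, per the submitters' processing notes; versions, read counter, annotation and strandedness: not given in the sources used here. Per the file headers, columns from DESeq2 give the mean normalised count (a signal), a log2 fold change with SE, a Wald score and p-values, those from edgeR a log2 fold change, mean log2 CPM and p-values, and those from Cufflinks group values (FPKM), their log2 ratio, a test score, p-values and q-values. The deposited table holds only genes past all 3 programs, with adjusted p up to 0.00986 in the authors' DESeq2 column, and no gene under 0.599 in absolute log2 fold change, which can overstate small effects. Fold changes are CDAA over CSAA: the Cufflinks ratio equalled the log2 of the group values within 0.001 for 2440 of 2440 genes above 0, and the authors' DESeq2 sign was that of the group values for 2457 of 2462.

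No test across rats was computed; 95% intervals are the normal intervals of the deposited SE. No depth per rat was at hand; mean normalised count over mean CPM corresponds to about 14100000 reads in a typical library. The 6 genes and the 22 lists (461 symbols, 127 in the table; matched directly or through RefSeq synonyms, assembly GRCr8) were chosen with earlier results of these data known, so lists are given as counts. The lists of genes dependent on growth hormone or MYC were written from textbook knowledge. Named genes are the 6, genes of the 12 pathway lists, up to 4 of each other list with the largest change plus up to 2 of opposite sign, the 3 nearest by level, and listed genes within 200 kb; a few that met this rule are not reported here. Alternatives were the values that the authors made with edgeR and Cufflinks, a pseudocount of 1 FPKM, a 2-fold threshold and filters at 1 and 5 FPKM. Protein sequences were not analysed here. The computations ran in Python 3.11.15 (numpy 2.4.6, pandas 2.3.3, matplotlib 3.10.9, scipy 1.17.1).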

Additional observations from a re-analysis of the deposited data

How the results depend on the processing

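With edgeR or Cufflinks in place of DESeq2, all 6 genes kept their direction and passed the threshold, and none differed from DESeq2 by over 1.5 times. Every gene in the table had passed each program, so the passing is no result. The DESeq2 sign was that of edgeR for 2462 of 2462 genes and that of the Cufflinks group levels for 2457 of 2462. Kept directions, here and for the other genes below, were thus those of almost the whole table. With 1 FPKM added to both group levels the rises of the weakly expressed genes shrank, to 1.03 for Fgfr1, 0.78 for Pdgfb and 1.87 for Bmp7, by construction of the pseudocount. Counting only changes of 2-fold or more left 1 of the 6 lower, since Ghr lay just short of it, and a minimum of 5 FPKM in either group left 2 higher, since Fgfr1 and Pdgfb were below. For the 138 other genes of the lists, the nearest genes and Plek, a comparison added after the data were seen, edgeR gave the direction of DESeq2 for 138 and Cufflinks for 137; the exception was Nrp1, at -2.08 in Cufflinks, and the cause was not tested. No paired analysis was possible because the table holds 1 value per diet group and none per rat, and for the same reason leaving out single rats was not run. Of the 6 genes, Pdgfb had the lowest depth, at 21.8 mean normalised counts.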

Other observations

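Further families of the fixed lists are described here as values. In the TGF-beta and activin list 11 of 28 genes were in the authors' deposited table, 9 higher and 2 lower, with a median log2 fold change of 1.98, beside 57.1% higher and 1.006 over the whole table. All 3 TGF-beta ligand genes rose, Tgfb2 the most (2.82 ± 0.38, SE), then Tgfb3 (1.98 ± 0.31) and Tgfb1 (1.45 ± 0.31), per the authors' deposited table. Ltbp2, of the latent TGF-beta binding protein family, rose by the most of that list (4.06 ± 0.34) per the authors' deposited table. Under 5 FPKM in CSAA lay 7 of the 11 genes of that list. All 7 rose, as did 92.3% of the table's genes at that level. The activin subunit genes moved apart: Inhba fell from 26.9 to 6.64 FPKM (-2.02 ± 0.14) and Inhbc from 22.5 to 9.88 FPKM (-1.15 ± 0.29), while Inhbb rose from 0.0920 to 1.08 FPKM (2.92 ± 0.55), per the authors' deposited table.

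In the list of HGF, MET and TAM genes 7 of 13 were in the authors' deposited table, 4 higher and 3 lower. Over all 2462 genes 57.1% were higher and 42.9% lower. Under 5 FPKM in CSAA lay 3 of the 7, and all 3 rose, as did 92.3% of listed genes at that level. The 3 fallers had at least 100 FPKM in CSAA, where 98.1% of listed genes fell. Axl, the other riser, lay from 5 to under 100 FPKM, where 75.7% fell. Spint1, an inhibitor of the proteases that activate HGF, rose from 0.357 to 7.11 FPKM (4.11 ± 0.32, SE), and St14, the membrane protease matriptase, from 0.501 to 3.19 FPKM (2.47 ± 0.39), per the authors' deposited table. Hgfac, the HGF activator gene of hepatocytes, fell from 153 to 85.9 FPKM (-0.84 ± 0.14), and Mst1, the gene of macrophage-stimulating protein, from 110.2 to 65.4 FPKM (-0.76 ± 0.17), per the authors' deposited table. Hgf and Met were not in the table. The TAM receptor genes Axl (1.01 ± 0.31) and Tyro3 (1.62 ± 0.41) rose and the ligand gene Pros1 fell (-0.93 ± 0.23) per the authors' deposited table.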
